A study of Rattus norvegicus with 42 samples.

Results

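Glucocorticoid receptor (GR) binding was measured by ChIP-seq in rat liver after 140 min of constant corticosterone (CORT) infusion, a group named CONS_140, and was compared with vehicle-infused liver (VEH). The comparison covered all 3981 GR regions of the series. The authors had merged these regions from the peaks of 5 groups, CONS_140 among them, and most lists came from CORT-treated liver, so the regions were chosen for high values mainly under CORT and the share raised below holds for such regions only. All rats were male Sprague Dawley and adrenalectomised, so that controls and treated animals alike lacked their own adrenal CORT. CONS_140 rats received CORT (CORT-HBC at 0.0035 g per ml) intravenously at 0.333 ml per hour, after a short faster start that cleared the lines, until the liver was taken at 140 min. The VEH group consisted of 1 library taken at 140 min and 1 taken at 180 min of a pulsatile vehicle infusion, so infusion pattern differed between treated and control rats, and time differed for 1 of the control libraries. Each library pooled chromatin of 6 rats, and CONS_140 and VEH had 2 libraries each, 4 of the 42 libraries of the series. The other GR libraries of the series, used only where stated, came from the same kind of rat after 180 min of constant CORT (CONS_180), at the end of the third CORT pulse (PEAK_140) or at the following trough (NADIR_180), again with 2 libraries each.

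GR is a nuclear receptor that rests in the cytoplasm bound to chaperones and moves to chromatin when CORT binds it. There it recognises the glucocorticoid response element (GRE), a partial palindrome of half-sites spaced by 3 bases, in promoters and in distant enhancers. In liver its targets include enzymes of gluconeogenesis and amino acid breakdown, clock genes and inhibitors of inflammation.

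Short sequences are shown first for 5 raised regions whose values are given later, because each holds a match to the GRE. Each is a match to the GRE inside a raised region, as listed with the study's motif search, written 5′ to 3′ on the strand of that match, with the bases of the ACANNNTGT core outside its spacer in capitals. The motif list held 1378 of the 2575 raised regions and gave a GRE for 618 of these, so a match is not general to raised regions. Distances are from the region's centre to the transcription start site (TSS) of the nearest gene, and coordinates are of the rat build rn6.
Per1, chr10:55683421-55684046, -3317 b: agaACAcgaTGT
Per1, chr10:55685632-55686257, -1106 b: ggaACAtccTGT
Fkbp5, chr20:8020046-8020671, -1338 b: agaACAagcTGT
Got1, chr1:263269863-263270488, -413 b: tggACAcgcTGT
Zfp36, chr1:85382504-85383194, 2761 b: gggACAggaTGT

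The 3 promoters below belong to genes with a raised region centred within 250 b of the TSS, and were the 3 with the greatest increase among those whose promoter sequence held the core. They are RefSeq sequences of build GRCr8, from 250 bases before to 50 after the start, written in the direction of transcription with the same 6 bases of each core in capitals. Orm1 and Fga encode the plasma proteins orosomucoid and the fibrinogen alpha chain, and Lcat encodes the enzyme that esterifies cholesterol on lipoproteins.
Orm1, GRCr8 chr5:81788259-81788558, plus strand: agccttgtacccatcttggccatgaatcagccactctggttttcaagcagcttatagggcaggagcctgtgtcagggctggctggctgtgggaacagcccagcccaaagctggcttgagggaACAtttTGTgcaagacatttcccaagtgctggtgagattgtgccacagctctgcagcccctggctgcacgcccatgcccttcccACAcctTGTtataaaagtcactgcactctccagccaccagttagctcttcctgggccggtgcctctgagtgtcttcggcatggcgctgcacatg
Fga, GRCr8 chr2:170671919-170672218, plus strand: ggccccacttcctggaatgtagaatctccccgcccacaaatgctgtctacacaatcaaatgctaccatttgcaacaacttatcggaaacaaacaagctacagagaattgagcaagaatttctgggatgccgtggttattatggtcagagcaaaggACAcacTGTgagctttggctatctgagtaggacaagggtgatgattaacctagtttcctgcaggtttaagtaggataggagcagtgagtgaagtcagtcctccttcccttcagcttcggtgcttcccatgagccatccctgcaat
Lcat, GRCr8 chr19:50748015-50748314, minus strand: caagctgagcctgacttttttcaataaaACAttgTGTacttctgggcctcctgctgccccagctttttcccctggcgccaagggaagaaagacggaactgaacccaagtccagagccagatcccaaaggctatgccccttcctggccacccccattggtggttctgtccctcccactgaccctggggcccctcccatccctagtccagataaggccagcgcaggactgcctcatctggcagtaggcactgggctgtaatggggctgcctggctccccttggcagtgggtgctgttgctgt

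The letters ACANNNTGT, which read the same on both strands, occurred in 2295 of all 33469 RefSeq promoters of this length (6.86%). Of 118 raised regions centred within 250 b of a TSS, 77 genes had a promoter in the RefSeq table by symbol, and 15 of these held the letters (19.5%). In all, 220 regions were centred within 250 b of a TSS, and the share was not computed for those not raised. Whether the difference from all promoters goes with the rise was thus not tested. A match describes the window only, and the RefSeq start need not be the start used by the study's annotation. At Lcat the GR values were -0.53 and -0.72 in VEH and 5.66 and 4.49 in CONS_140, a log2 change of 5.70 ± 0.57 (SE), and those of Orm1 and Fga follow with the other plasma proteins.

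Before the comparison, the depth of the 2 CONS_140 libraries has to be given. Replicate 1 held 6715803 tags and replicate 2 held 3663062, a ratio of 1.83, while the VEH libraries held 3236498 at 140 min and 3902296 at 180 min. Values are log2 tags per region after input subtraction, on a scale that draws low counts towards the region's mean, so a fold change at a region with few tags depends on that scale. The median value over all regions was 3.73 in CONS_140 replicate 1, 2.99 in CONS_140 replicate 2, -0.65 in VEH at 140 min and -0.86 in VEH at 180 min. Both CONS_140 medians were thus well above both VEH medians, and replicate 1 was the higher of the pair.

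The value was higher in replicate 1 than in replicate 2 at 2908 of 3981 regions (73.0%), by a median of 0.58. The gap narrowed as binding rose. Its mean was 2.24 in the quintile of regions with the lowest CONS_140 values, 0.73 in the middle quintile and 0.15 in the highest, and 3.39%, 81.2% and 97.5% of their regions were raised against VEH. In 744 regions replicate 2 was below -0.5 on the log2 scale, and replicate 1 had a median of 2.57 in them. The converse, replicate 1 below -0.5, applied to 100 regions. None of either set was called raised. The quintiles and both sets were cut on CONS_140 values, which also enter the call against VEH and the gap. That choice favours these raised shares and the wider gap at low values, so they are a description only. Across regions the Pearson correlation of the 2 libraries was 0.63, given as a description because regions share libraries and background.

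**Figure D1:**
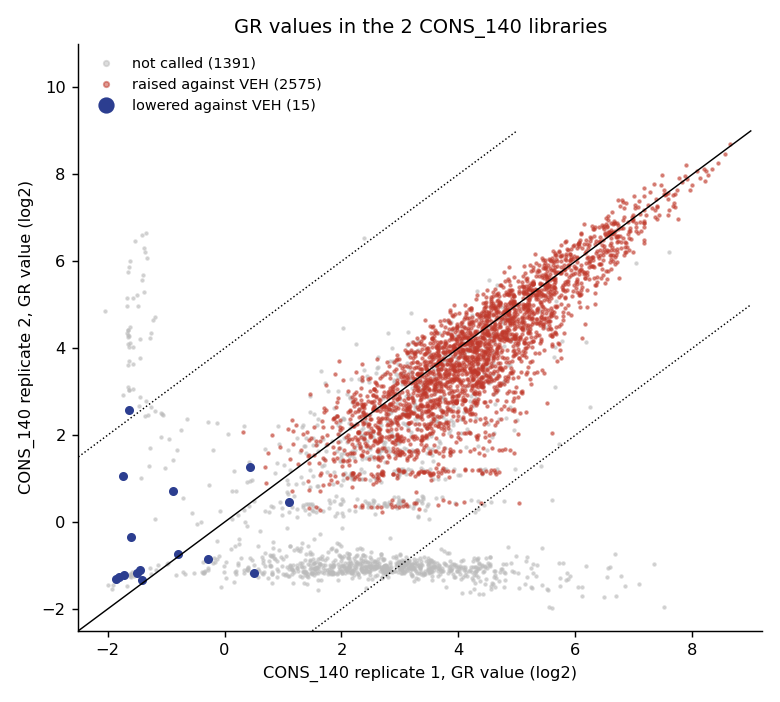
GR value (log2) of each of the 3981 regions in CONS_140 replicate 1 (x axis) and replicate 2 (y axis), coloured by the call against VEH, with the line of equality and dotted lines 4 log2 units away from it. High values lie along the line of equality, and a band of 744 regions lies below -0.5 in replicate 2 over a wide range of replicate 1, none of it called raised.

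At CONS_140, GR binding was above VEH in most GR regions of the series. By limma over all 10 GR libraries, 2575 of 3981 regions were raised (64.7%) and 15 were lowered (0.377%), with calls made where the Benjamini-Hochberg adjusted p was under 0.05 and the change exceeded 1.5-fold. The median log2 change over all regions was 3.38, and among raised regions it was 4.26 with quartiles of 3.44 and 5.14. Log2 changes of raised regions ran from 1.22 to 8.32, and 738 of them were above 5. Both CONS_140 libraries lay above both VEH libraries in 2972 regions (74.7%), which included all 2575 raised ones. The count of raised regions was 2001 without CONS_140 replicate 1, 2898 without CONS_140 replicate 2, 2263 without the VEH library at 140 min and 2041 without the VEH library at 180 min, and the count of lowered regions was 39, 71, 8 and 7 in the same order.

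These counts rest on values as the authors scaled them. The methods name tags within binding regions as the scale, and the deposited command names total tags. When each library was instead centred on the median of its own regions, every log2 change dropped by 4.11, the median change became -0.73, and 126 regions were raised and 351 lowered. The raised share of all calls was 99.4% as deposited, 26.4% after centring and 52.5% after quantile normalization, which left 405 raised and 366 lowered. Centring removes by construction any rise that the typical region shares, so below a region is described both by its change from VEH and by where it stood against the median change of 3.38. All 12 of the regions with the greatest increase were called raised under both of these scalings.

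The greatest increase was at an intergenic region -17596 b from Armc12, chr20:8091727-8092352, which lay 73.0 kb upstream of the TSS of Fkbp5. Its GR values were -0.19 and -0.40 in VEH and 8.14 and 7.93 in CONS_140. Both CONS_140 libraries were far above both VEH libraries, with a log2 change of 8.32 ± 0.38 (SE, adjusted p = 4.72e-06). Fkbp5 encodes the GR co-chaperone FKBP51.

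Nfkbia encodes the inhibitor that holds NF-kB in the cytoplasm. At its intronic region, chr6:76269501-76270126 and 644 b from the TSS, the values were -0.46 and -0.66 in VEH and 7.66 and 7.28 in CONS_140. The groups did not overlap, and the log2 change was 8.03 ± 0.77 (SE, adjusted p = 6.49e-05). Zbtb16 encodes a zinc finger repressor known to be induced by glucocorticoids. Its strongest region, in an intron 91439 b from the TSS at chr8:53055202-53055827, had values of -0.21 and 0.64 in VEH and 7.91 and 7.88 in CONS_140. The 2 CONS_140 values nearly coincided, with a log2 change of 7.68 ± 0.94 (SE, adjusted p = 0.000201). Ppp1r3c targets protein phosphatase 1 to glycogen. The region -17783 b from it, chr1:255394304-255394929, had -0.31 and -0.52 in VEH and 7.01 and 7.49 in CONS_140, a log2 change of 7.67 ± 0.97 (SE, adjusted p = 0.000239).

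Map1lc3b encodes the autophagosome protein LC3B, and its intronic region was among both the greatest increases and the highest values. At chr19:53630812-53631437 it had 0.92 and 0.68 in VEH and 8.56 and 8.47 in CONS_140, a log2 change of 7.71 ± 0.34 (SE, adjusted p = 3.90e-06). The remaining 7 of the 12 greatest increases were nearest to Abhd11, Ndufb9, Asip, RF00619 and the unnamed genes AABR07010589.1, AABR07026037.1 and AABR07049524.1. Their log2 changes ran from 7.60 to 8.26, and in all of them both VEH values were below 0 while both CONS_140 values were above 7. Of the 12 regions, 8 were intergenic and 4 intronic, and none was in a promoter. Over all 3981 regions 1918 were intergenic, 1534 intronic and only 333 in promoters, so the counts among 12 are a description only.

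The highest level of binding, as distinct from the greatest increase, was in an intron annotated to AABR07004100.2 at chr1:124775856-124776481. Its values were 8.65 and 8.70 in CONS_140, but also 2.92 and 3.33 in VEH, so its log2 change of 5.56 ± 0.22 (SE, adjusted p = 2.97e-06) was well below the greatest ones. The same held for Zfp36, which encodes an RNA-binding protein that destabilises cytokine transcripts. Its region at chr1:85382504-85383194 had 2.65 and 2.83 in VEH and 8.24 and 8.07 in CONS_140, a log2 change of 5.41 ± 0.34. At the promoter of Got1, the cytosolic aspartate aminotransferase, VEH values were 3.43 and 3.17 and CONS_140 values were above 8 in both libraries, a log2 change of 4.86 ± 0.36. The other 3 of the 6 highest regions were the Map1lc3b intron and 2 intergenic regions nearest to AABR07054619.1, with log2 changes of 6.44 and 7.37. Adjusted p was below 0.001 at each of the 6.

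**Figure D2:**
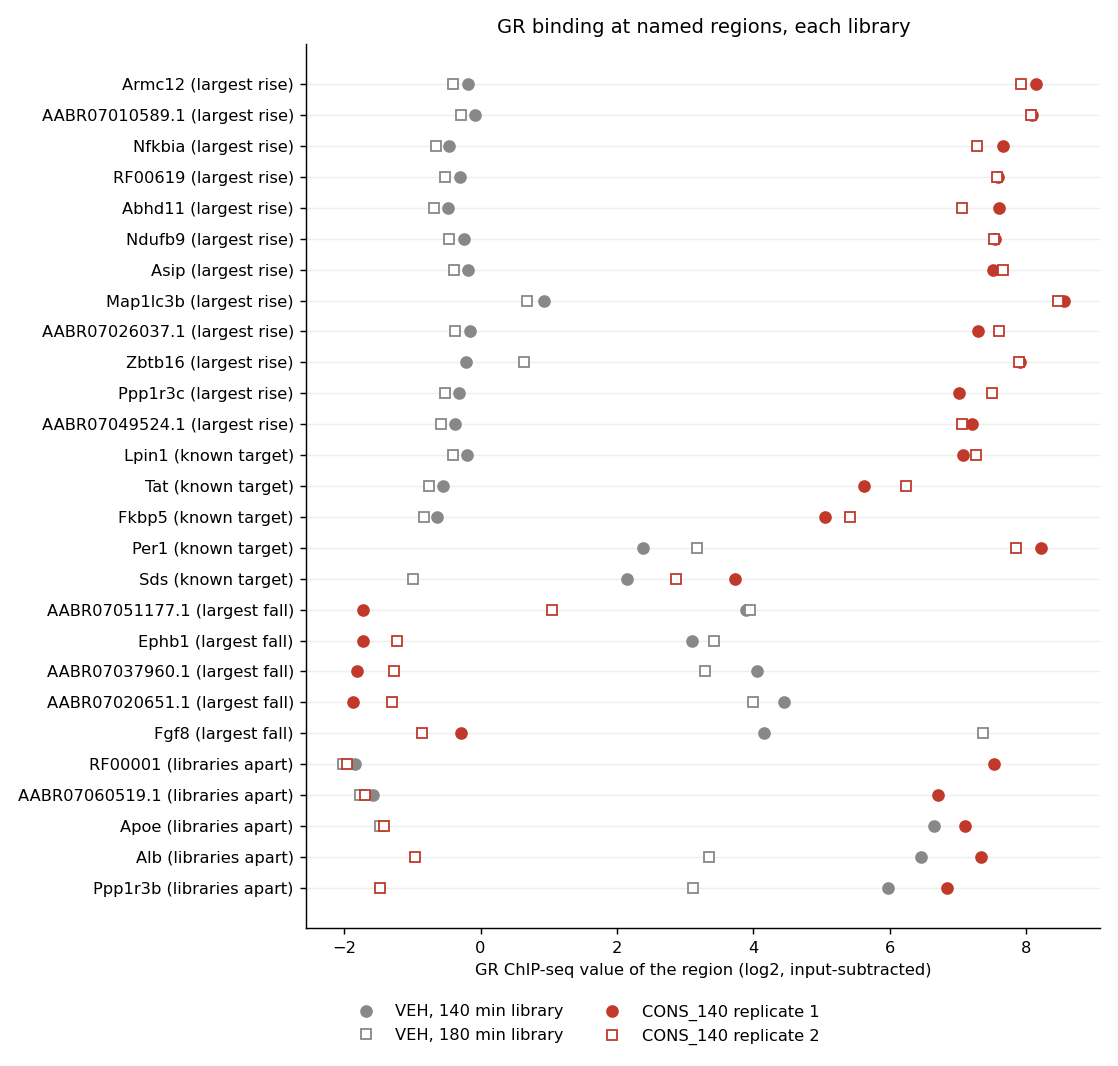
GR value (log2, input-subtracted) in each of the 2 VEH and 2 CONS_140 libraries at 27 regions, named by nearest gene, with circles for replicate 1 and the VEH library at 140 min and squares for replicate 2 and the VEH library at 180 min. The 12 greatest increases sit below 1 in VEH and above 7 in CONS_140, the 5 greatest decreases are reversed, and the last 5 rows have a high circle and a low square within CONS_140.

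Among known GR targets, Per1, a repressor of the circadian clock, had VEH values above the VEH median at its strongest region, although no VEH peak was called there. At -3317 b the GR values were 2.38 and 3.17 in VEH and 8.21 and 7.84 in CONS_140, a log2 change of 5.25 ± 0.33 (SE, adjusted p = 1.16e-05). A second Per1 region at -1106 b was raised by 4.25 on the log2 scale. At Fkbp5 the intronic region 19996 b from the TSS had -0.63 and -0.82 in VEH and 5.04 and 5.42 in CONS_140, a log2 change of 5.96 ± 0.85 (SE, adjusted p = 0.000405), and the region at -1338 b was raised by 5.41. Lpin1 encodes a phosphatidate phosphatase of triglyceride synthesis, and its region at -20308 b had -0.20 and -0.41 in VEH and 7.08 and 7.26 in CONS_140, a log2 change of 7.47 ± 0.38 (SE, adjusted p = 6.68e-06).

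Tat, the tyrosine aminotransferase long used as a glucocorticoid-inducible gene, was nearest to 6 regions, of which 5 were raised, by 3.65 to 6.58 on the log2 scale. The largest was at -7273 b with -0.56 and -0.75 in VEH and 5.61 and 6.24 in CONS_140. The Tat region not called lay in an intron 942 b from the TSS and had 5.73 in replicate 1 but -1.28 in replicate 2 of CONS_140. Sds encodes serine dehydratase, and neither of the 2 regions annotated to it was called. A raised region lay -4918 b from the Sds TSS but was annotated to the neighbouring gene Sdsl, with 1.45 and -0.68 in VEH and 5.78 and 4.75 in CONS_140, a log2 change of 4.88 ± 1.00 (SE, adjusted p = 0.00261). The Sds promoter region at -155 b had 2.14 and -1.0 in VEH and 3.73 and 2.87 in CONS_140, so that the groups did not overlap, yet the log2 change of 2.72 ± 1.31 missed the threshold (SE, adjusted p = 0.096).

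The authors' annotation places each region in 1 of 5 classes. Introns held 1534 regions, of which 1028 were raised (67.0%, median log2 change 3.46), and intergenic sequence held 1918, of which 1262 were raised (65.8%, median 3.42). Promoters held 333 regions, of which 178 were raised (53.5%, median 2.75). Exons had 55 of 108 raised (50.9%, median 3.02) and the class around transcription termination sites (TTS) had 52 of 88 raised (59.1%, median 3.24). The promoter share lay below the 64.7% of all regions, and its 95% Wilson interval of 48.1% to 58.7% covers counting error only, with neighbouring regions counted as if independent. The 2 CONS_140 libraries also stood further apart in promoters, by a median of 1.22 against 0.58 over all regions, and VEH values were higher there, with a median of -0.03 against -0.57. The part of these differences in the lower promoter share was not tested.

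Distance to the TSS gave the same picture in finer steps. Within 1 kb of a TSS 250 of 474 regions were raised (52.7%), from 1 to 10 kb 759 of 1181 (64.3%), from 10 to 50 kb 1040 of 1531 (67.9%), from 50 to 100 kb 333 of 486 (68.5%) and over 100 kb 193 of 309 (62.5%). The median log2 change was 2.79 within 1 kb and 3.60 from 50 to 100 kb. Raised regions lay at a median of 15372 b from the nearest TSS, against 14293 b for all regions.

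**Figure D3:**
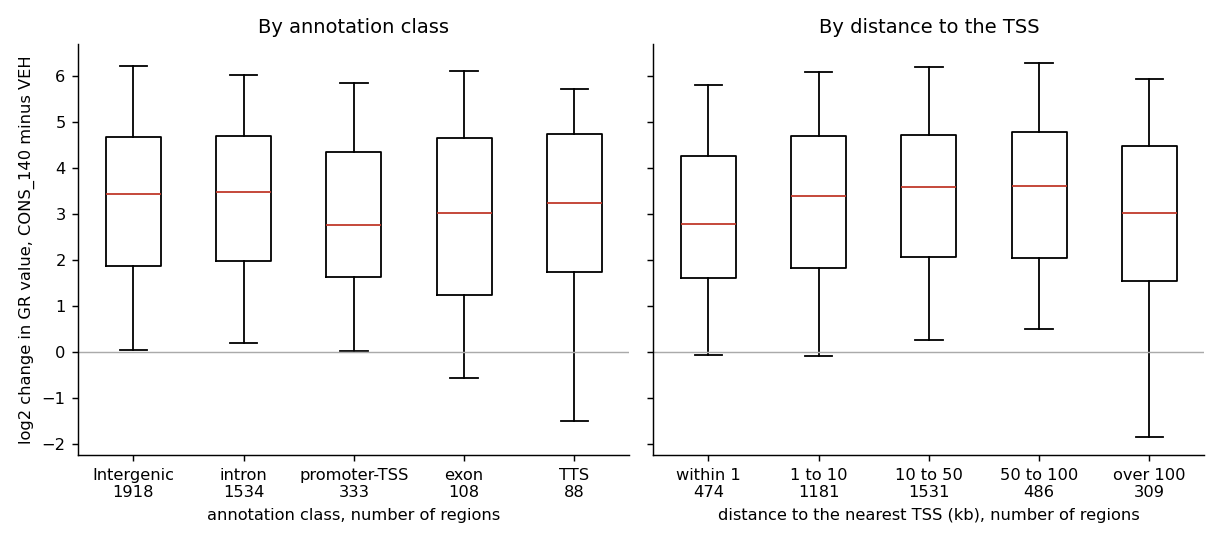
Log2 change in GR value from VEH to CONS_140 by annotation class (left) and by distance to the nearest TSS in kb (right), with boxes from the lower to the upper quartile, the median in red and whiskers at the 5th and 95th percentiles over regions. Medians run from 2.75 in promoters to 3.46 in introns, and boxes of all classes overlap widely.

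The authors' peak list for CONS_140 held 1723 peaks, each of which overlapped 1 region by at least 1 base. Of these regions 1456 were raised (84.5%) and 267 were not called. In the 267 replicate 1 exceeded replicate 2 by a median of 4.53 on the log2 scale, against 0.30 in the raised ones. A further 1119 raised regions were in no CONS_140 peak and had been defined by peaks of another group. They had a median log2 change of 3.55 and a median CONS_140 value of 2.95, against 4.98 and 4.79 in raised regions with a peak. The list was called from the same CONS_140 libraries, so higher values within it were fixed by that choice and these medians are a description only.

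Regions were also grouped by the function of the nearest gene, in 9 lists. The list of anti-inflammatory and feedback targets of GR had the highest median log2 change, 4.74 against 3.38 over all regions, with 45 of 55 regions raised (81.8% against 64.7%). It was the only one of the 9 lists whose median stayed above 0 after centring, at 0.63. All 19 of its genes that had a region had a raised one, against 1939 of the 2736 nearest genes of all regions. The same held for all 14 genes with a region in the list of plasma proteins, so it was not particular to this list. The 19 genes of the anti-inflammatory list shared 55 regions, and a gene with more regions has more openings for a raised one. The list was chosen with earlier results of these data known. Besides Nfkbia and Zbtb16 its largest changes were at Il6r, the interleukin-6 receptor, with 2.01 and -0.33 in VEH and 7.51 and 7.56 in CONS_140, a log2 change of 6.69 ± 0.66, and at Errfi1, a feedback inhibitor of the epidermal growth factor receptor, with a log2 change of 6.31 ± 0.90.

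Genes of amino acid breakdown and methionine metabolism had 38 of 59 regions raised (64.4%, median 3.69), close to the share over all regions. The largest were at Slc7a2, a transporter of cationic amino acids (7.12 ± 0.51), Ass1, the argininosuccinate synthase of the urea cycle (6.97 ± 0.78), Tat (6.58 ± 0.80) and Etnppl, which breaks down phosphoethanolamine (6.47 ± 0.72), given as log2 change ± SE. Gluconeogenesis and carbohydrate metabolism had 25 of 43 raised and 1 lowered (58.1% raised, median 3.79). Its largest after Ppp1r3c were at Foxo3, a transcription factor restrained by insulin (6.92 ± 0.65), Klf15, a regulator of amino acid use in gluconeogenesis (6.59 ± 0.75), and Pck1, the cytosolic phosphoenolpyruvate carboxykinase. The Pck1 region at -5610 b had -0.61 and -0.80 in VEH and 5.67 and 5.76 in CONS_140, a log2 change of 6.42 ± 0.59.

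Lipid and sterol genes had 29 of 43 regions raised and 1 lowered (67.4% raised, median 4.01), a share close to the 64.7% over all regions. After Lpin1 the largest were at Insig1, which retains the sterol sensor in the endoplasmic reticulum (6.46 ± 0.48), Dgat2, the last enzyme of triglyceride synthesis (5.99 ± 0.98), and Cyp7a1, the rate-limiting enzyme of bile acid synthesis (5.99 ± 0.68). Clock genes and their outputs had 16 of 22 raised (72.7%, median 3.98). The promoter of Ciart, a circadian repressor, had -0.69 and -0.88 in VEH and 6.34 and 5.02 in CONS_140, a log2 change of 6.46 ± 0.86. Usp2, Bhlhe40 and Hlf followed with log2 changes of 5.91, 5.67 and 5.58.

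Hepatocyte transcription factors and nuclear receptors had 23 of 34 regions raised (67.6%, median 3.98), led by Nr1i2, the xenobiotic receptor PXR (7.40 ± 0.37), Cebpb (5.87 ± 0.72), Nr0b2, the bile acid induced repressor SHP (5.80 ± 0.61), and Nr2f6 (5.75 ± 0.84). The list of GR, its chaperones and corticosterone availability had 10 of 12 raised (83.3%, median 3.66) from 7 genes. After Fkbp5 it was led by H6pd, which supplies NADPH to the enzyme that regenerates CORT (5.45 ± 0.67), the steroid reductase Akr1d1 (4.83 ± 1.28) and Hsd11b1, that regenerating enzyme itself (3.86 ± 0.77). The Hsd11b1 change turned to -0.25 after centring and -0.31 after quantile normalization.

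The remaining lists stood below the median of all regions. Insulin, growth hormone and IGF signalling had 15 of 31 regions raised (48.4%, median 2.96), with the largest changes at Pik3r1, the regulatory subunit of PI 3-kinase (7.05 ± 0.45), Igf1 (6.18 ± 0.52), Trib1 (6.08 ± 0.79) and Igfbp1 (5.66 ± 0.58). Plasma proteins, acute phase and detoxification had 33 of 59 raised and 1 lowered (55.9% raised, median 2.93), led by an intergenic region -31008 b from Alb (7.04 ± 0.43), Orm1 (6.06 ± 0.55), C3 (5.98 ± 0.57) and Fga (5.87 ± 0.55). All regions of these lists named with a log2 change and SE had an adjusted p below 0.05. After centring, the regions called raised and lowered numbered 5 and 2 for anti-inflammatory targets, 4 and 2 for gluconeogenesis, 3 and 2 for lipid genes, 2 and 2 for amino acid breakdown, 1 and 5 for plasma proteins, 1 and 3 for insulin signalling, 1 and 1 for hepatocyte transcription factors, 1 and 0 for the clock and 0 and 0 for GR with its chaperones. After centring, 8 of the 9 list medians were below 0, from -1.18 for plasma proteins to -0.10 for lipid genes, and 3 of the 9 were below 0 after quantile normalization, namely those of GR and its chaperones (-0.11), insulin signalling (-0.12) and plasma proteins (-0.47).

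**Figure D4:**
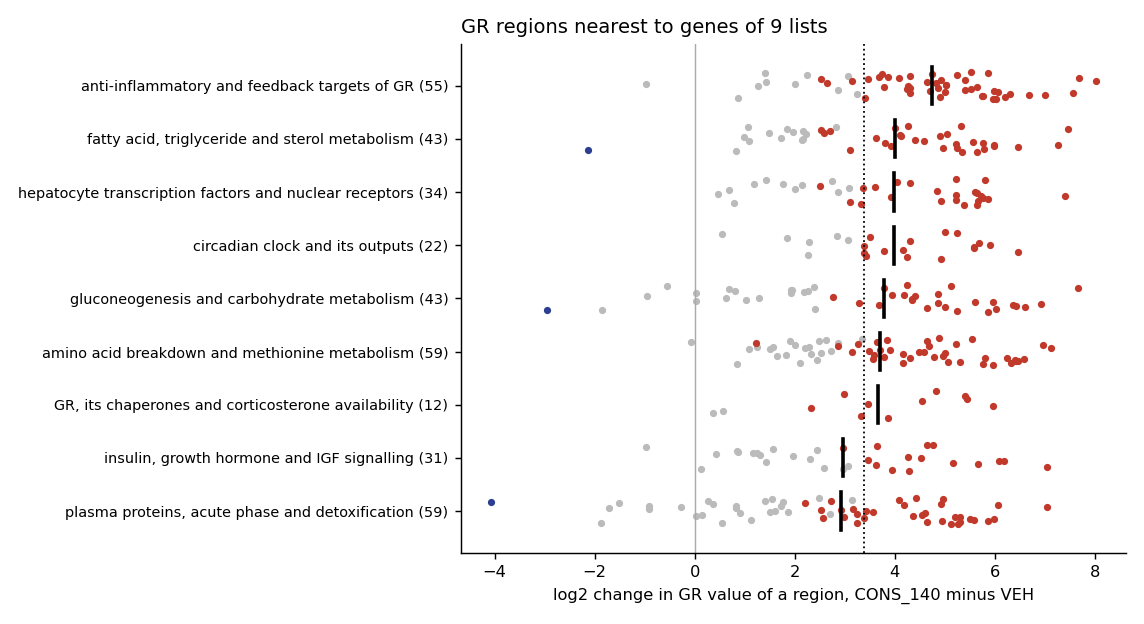
Log2 change in GR value from VEH to CONS_140 at each region nearest to a gene of 9 functional lists (number of regions in brackets), red for raised, blue for lowered and grey for not called, with a black bar at each list's median and a dotted line at the median of all 3981 regions. The list of anti-inflammatory and feedback targets has the median furthest to the right, 4.74, and plasma proteins the furthest to the left, 2.93.

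The 15 lowered regions were all in the VEH peak list of 118 peaks and none was in that of CONS_140, which follows in large part from their entry into the set through peaks called in VEH. All but 1 were 150 b wide, against a median of 626 b over all regions. None was in a promoter, a class that held only 333 of all 3981 regions. The largest decrease was at an intergenic region 29317 b from Fgf8, with 4.16 and 7.36 in VEH and -0.28 and -0.86 in CONS_140, a log2 change of -6.33 ± 1.94 (SE, adjusted p = 0.0182). The 2 VEH libraries themselves differed there by more than 3. Closer replicates were seen in an intron of Ephb1, an ephrin receptor, with 3.10 and 3.42 in VEH and -1.72 and -1.22 in CONS_140, a log2 change of -4.73 ± 0.67 (SE, adjusted p = 0.000396). Regions nearest to AABR07020651.1, AABR07037960.1 and AABR07051177.1 had log2 changes of -5.81, -5.20 and -4.25.

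Lowered regions at other named genes were chosen after their values were seen. An exonic region of Fgg, the fibrinogen gamma chain, had 2.67 and 2.79 in VEH and -1.50 and -1.17 in CONS_140. An intronic region of Pdk4, a kinase that restrains glucose oxidation, had 3.50 and 1.76 in VEH and 0.51 and -1.17 in CONS_140, and one of Hmgcs1, an enzyme of sterol synthesis, had 0.93 and 0.60 against -1.41 and -1.32. At the later time of the same infusion the 15 regions were not uniformly low. The median of their mean values was 2.87 in VEH, -0.76 in CONS_140 and 1.53 in CONS_180. In 9 of the 15 both CONS_180 libraries lay above both CONS_140 libraries, and in 10 both lay below both VEH libraries. The 15 were chosen for CONS_140 values below those of VEH, which favours CONS_180 values between the 2. These counts are therefore a description only, with no share over all regions beside them. The Ephb1 region had 2.90 and 3.25 in CONS_180, close to its VEH values. At AABR07051177.1 CONS_180 had 4.15 and 4.21, above VEH. At Hmgcs1, with -1.38 and -1.36, CONS_180 was as low as CONS_140. No region of the 15 was called between CONS_140 and CONS_180 (limma, lowest adjusted p = 0.119). Of the 116 regions in the VEH list 9 were raised (7.76%), 15 lowered and 92 not called, and their median log2 change was -1.80.

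A gap of more than 4 log2 units between the CONS_140 libraries occurred in 343 regions, with replicate 1 the higher in 295 and replicate 2 in 48. Only 1 of the 343 was called raised. Among the largest gaps was the first intron of Apoe, an apolipoprotein, 264 b from the TSS, with 7.10 and -1.42 in CONS_140 and 6.64 and -1.48 in VEH. There 1 library of each group was high and the other low, and the log2 change was 0.26 ± 2.92. An intronic region of Alb had 7.34 and -0.96 in CONS_140 and 6.46 and 3.35 in VEH, and one of Ppp1r3b had 6.84 and -1.48 against 5.97 and 3.12. Without CONS_140 replicate 2, the log2 changes at these Alb and Ppp1r3b regions turned from -1.72 to 2.44 and from -1.87 to 2.30. Near RF00001 and AABR07060519.1 only replicate 1 was high, at 7.52 and 6.70, and the other 3 libraries were below -1.5.

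The VEH library at 140 min exceeded that at 180 min by more than 4 in 31 regions in all, and 26 of these were among the 295. Of the 222 nearest genes in the 295 with measured mRNA, 33 were at 1000 CPM (reads scaled to library size) or more (14.9%, counting a gene once per region), against 7.96% over all regions. The part of mRNA level in these gaps was not tested. Leaving out all 343 regions gave 2655 raised and 19 lowered of the rest, a choice made after seeing the data.

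CONS_140 was also set against the other CORT groups directly, in the same fit, where the VEH libraries enter the estimate of spread but not the difference. Against CONS_180, the later time of the same infusion, limma called 0 regions raised and 0 lowered (0%), although 194 were under 0.05 in unadjusted p. The median difference was 0.15. Without CONS_140 replicate 2 the counts were 17 and 40, and without any other library of the pair they stayed at 0. Against PEAK_140, with a median difference of -0.58, 1 region was raised and 1 lowered (0.0251% each), while 560 were under 0.05 in unadjusted p. That count also rested on CONS_140 replicate 1, without which 46 were raised and 359 lowered. Without CONS_140 replicate 2 the counts were 7 and 0, and without either PEAK_140 library 0 and 0. A fit of the 4 libraries alone gave 3 raised and 17 lowered. Where a group was left with 1 library it added nothing to the estimate of spread, so such counts are a description only.

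The region raised against PEAK_140 lay in an exon, -8667 b from Pigv, a mannosyltransferase of GPI anchor synthesis. Its values were 6.53 and 6.85 in CONS_140, -0.73 and -0.51 in PEAK_140, 1.63 and 0.11 in CONS_180 and 2.74 and 2.48 in VEH. CONS_140 was the highest of the groups with both libraries, and the difference from PEAK_140 was 7.31 ± 0.84 (SE, adjusted p = 0.0349). Of the peak lists only that of CONS_140 held this region, so its entry into the set favoured a high CONS_140 value. The region lowered was 13451 b from AABR07024593.2, with 4.16 and 3.95 in CONS_140, 7.18 and 7.10 in PEAK_140, 6.57 and 6.03 in CONS_180 and 3.42 and 3.43 in VEH, a difference of -3.09 ± 0.37 (SE, adjusted p = 0.0349). It was not called against VEH, and it had a peak in PEAK_140 and CONS_180 but not in CONS_140.

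Against NADIR_180, the trough after a pulse, 1972 regions were raised (49.5%) and 0 lowered (0%), with 2269 under 0.05 in unadjusted p and a median difference of 2.43. A fit of the 4 libraries alone gave 1081 raised and 1 lowered. The count of raised regions was 1215 without CONS_140 replicate 1, 2012 without CONS_140 replicate 2, 2052 without NADIR_180 replicate 1 and 1404 without NADIR_180 replicate 2, and after centring it was 0. Lowered regions numbered 25 without CONS_140 replicate 1 and 20 without replicate 2. The 3 largest differences were at AABR07010587.1, Ass1 and Nedd4l, a ubiquitin ligase of sodium transport. At the exonic region -9319 b from Ass1, the values were 7.75 and 6.98 in CONS_140 and -0.39 and 1.05 in NADIR_180, a difference of 7.03 ± 0.78 (SE, adjusted p = 0.000503). At Nedd4l, 6.36 and 6.47 in CONS_140 stood against -0.41 and -0.24, a difference of 6.74 ± 0.45 (SE, adjusted p = 0.000274).

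The genes nearest to raised regions were followed in 2 other readouts, elongating RNA polymerase II (pSer2 Pol2) over the gene at CONS_140 and mRNA after 180 min of constant CORT against constant vehicle, with 3 libraries each. In tissue measured in bulk, fewer cells of a type and less RNA per cell cannot be told apart. Summed over 6 hepatocyte markers, mRNA was 135193 to 145395 CPM under CORT and 93940 to 137003 under vehicle. The 6 markers of Kupffer cells and macrophages, 5 of them measured, summed to 271 to 303 and 233 to 409 CPM, so the hepatocyte sum was far the larger in every library. Markers were low for endothelial cells (4 of 5 measured, 261 to 319 CPM under CORT and 241 to 304 under vehicle), stellate cells (5 of 5, 156 to 183 and 199 to 215) and cholangiocytes (2 of 4, 7.92 to 10.0 and 7.57 to 14.3). By edgeR 2 of the 6 hepatocyte markers and 1 of the 5 stellate markers were called raised under CORT, and 0 were lowered. The sums add markers of unlike abundance, so they do not give shares of cells.

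The 2575 raised regions had 1939 nearest genes, of which 1514 had 1 raised region, 301 had 2 and 80 had 3. Of 14092 genes tested by edgeR, mRNA was raised in 627 (4.45%) and lowered in 670 (4.75%). Among genes with no raised region 350 of 12753 had raised mRNA (2.74%), with 1 region 169 of 1013 (16.7%), with 2 regions 64 of 224 (28.6%), with 3 regions 25 of 68 (36.8%) and with 4 or more 19 of 34 (55.9%). Lowered mRNA did not follow that order, with 4.57%, 7.11%, 5.80%, 2.94% and 0%. For pSer2 Pol2, 103 of 16568 genes were raised (0.622%) and 28 lowered (0.169%). The raised share was 0.145%, 3.35%, 8.55%, 21.9% and 25% in the same order of 0 to 4 or more regions. Genes with no raised region include those with no GR region at all, and a gene cannot have more raised regions than GR regions. The part of the number of GR regions, raised or not, in these shares was not tested. These shares are descriptions, and the length and spacing of the genes were not examined.

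The pSer2 Pol2 calls were fragile. Over regions, 227 were raised and 75 lowered, but with only the 4 libraries of the comparison limma called 0 and 0. Leaving out CONS_140 replicate 2 gave 5515 raised and 154 lowered, leaving out CONS_140 replicate 1 gave 27 and 53, leaving out VEH at 140 min 185 and 5, and leaving out VEH at 180 min 22 and 2.

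**Figure D5:**
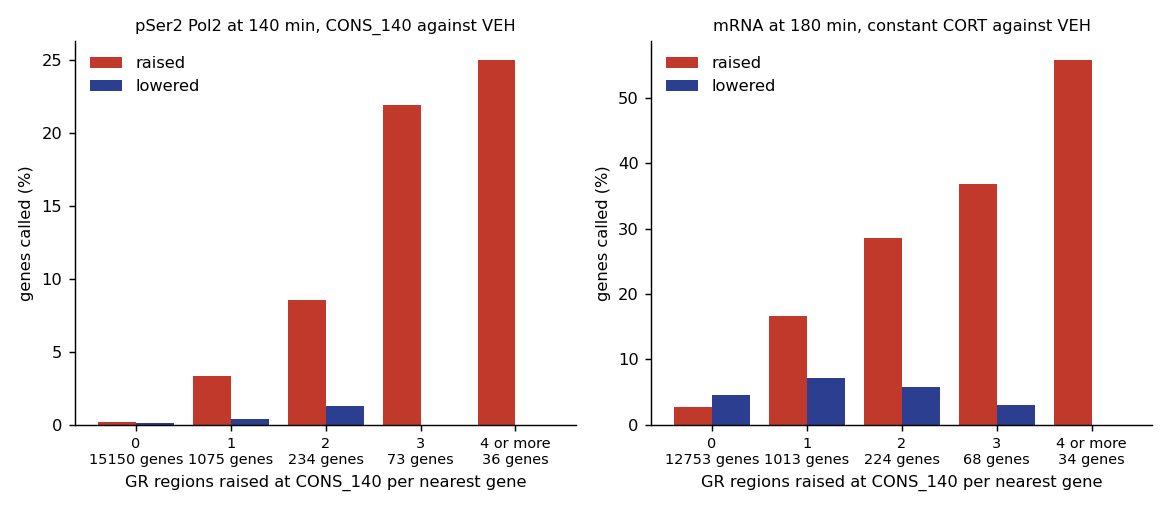
Share of genes (%) with raised (red) and lowered (blue) pSer2 Pol2 at 140 min (left) and mRNA at 180 min (right) by the number of GR regions raised at CONS_140 whose nearest gene they are. The raised share climbs from 0.145% to 25% for pSer2 Pol2 and from 2.74% to 55.9% for mRNA. The first group includes genes without any GR region.

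Shares were also read by distance of the raised region. mRNA was raised in 52 of 218 genes with a raised region within 1 kb (23.9%), 129 of 518 at 1 to 10 kb (24.9%), 134 of 583 at 10 to 50 kb (23%) and 38 of 224 beyond 50 kb (17.0%), a gene entering each bin in which it had a region. For pSer2 Pol2 the raised share was 9.96%, 8.32%, 6.66% and 4.91% in the same order.

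Genes with the most raised regions were read next, and so were chosen by GR values. Zbtb16 had 9 regions and all 9 were raised. Its mRNA was 651, 589 and 540 CPM under CORT and 80.9, 35 and 45.8 under vehicle, without overlap (log2 change 3.44, edgeR adjusted p = 5.06e-06), and its pSer2 Pol2 was raised by 6.87 on the log2 scale. Alb also had 9 raised regions, of 12, but its mRNA of 107478, 106801 and 113522 CPM under CORT overlapped with 79279, 73450 and 115404 under vehicle and was not called. Tsku, which encodes a secreted leucine-rich protein, had 6 of 8 regions raised with mRNA raised by 2.84, and Tsc22d3, the glucocorticoid-induced leucine zipper, had 6 of 6 raised with mRNA raised by 3.00. Egfr and Insig1, each with 6 of 8 regions raised, had mRNA raised by 0.87 and 1.35. Their pSer2 Pol2 was not called, nor was that of Alb, while that of Tsku and Tsc22d3 was raised. Among the other genes with 6 or more raised regions, mRNA was raised at AABR07027072.1 and not called at AABR07072667.1 and AABR07058158.1. AABR07054619.1 and Slc45a1 had no tested mRNA.

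The mRNA of the same 9 lists was counted over all measured members, with or without a GR region, against backgrounds of 4.45% raised and 4.75% lowered. Of 25 anti-inflammatory and feedback targets 15 were raised and 3 lowered (median log2 change 1.23), and of 31 genes of amino acid breakdown 15 were raised and 0 lowered (median 0.71). Gluconeogenesis had 10 of 27 raised and 2 lowered, insulin and IGF signalling 5 of 22 and 3, the clock 4 of 20 and 3, hepatocyte transcription factors 4 of 23 and 0, and GR with its chaperones 2 of 20 and 0. Lipid genes had 4 of 35 raised and 16 lowered (median -0.72). Of 23 plasma protein genes 0 were raised and 2 lowered. In pSer2 Pol2 the backgrounds were 0.622% raised and 0.169% lowered. There 12 of 29 anti-inflammatory targets, 11 of 32 amino acid genes and 2 of 37 lipid genes were raised, and 4 of the lipid genes were lowered. Raised were also 5 of 29 gluconeogenesis genes, 4 of 25 hepatocyte transcription factors and 3 of 22 clock genes. Insulin signalling had 2 of 23 raised, GR with its chaperones 2 of 19 and plasma proteins 0 of 25. Lowered were 2 genes of insulin signalling and 1 of gluconeogenesis. These pSer2 Pol2 calls are those described above as fragile. The lists were chosen with earlier results of these data known, so their counts beside the backgrounds are a description only.

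At several named sites the 3 readouts moved together. Lpin1 mRNA was 985, 2145 and 1837 CPM under CORT and 88.9, 99.8 and 70.8 under vehicle (log2 change 4.26, edgeR adjusted p = 4.56e-08). Etnppl rose by 3.62 in mRNA and 5.81 in pSer2 Pol2, Got1 by 3.21 and 1.72, Fkbp5 by 2.95 and 3.82, and Per1 by 3.12 and 3.96, all called. Sds, with a raised GR region at -4918 b that is annotated to Sdsl, rose by 4.11 in mRNA and 2.54 in pSer2 Pol2, both called.

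Other strong sites had no such counterpart. Orm1, with a GR change of 6.06 at its first exon, had lower mRNA under CORT, 534, 673 and 623 CPM against 800, 5227 and 1240 under vehicle (log2 change -1.99, edgeR adjusted p = 0.0125), and 1 vehicle library held most of that difference. Cyp7a1 mRNA fell by 0.89 on the log2 scale (edgeR adjusted p = 0.0417) while its pSer2 Pol2 at 140 min was raised by 2.25. Igf1 pSer2 Pol2 fell by 2.30 on the log2 scale, and its mRNA was not called. For Fga, C3, Dgat2, Nr2f6 and Ndufb9 neither mRNA nor pSer2 Pol2 was called. At Tat, Pck1, Errfi1, Foxo3, Pik3r1, Insig1 and Nedd4l mRNA was raised but pSer2 Pol2 was not called. Nearest-gene assignment is by position alone, and whether a region acts on that gene was not measured.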

How the data were processed

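Of the 42 libraries, the 10 GR ChIP-seq, 10 pSer2 Pol2 ChIP-seq and 12 RNA-seq libraries entered the fits. The authors trimmed ChIP reads with Trimmomatic 0.36, aligned to rn6, removed duplicates with SAMtools, called peaks with HOMER 4.9.1 and merged the lists of 5 groups into 3981 regions. Deposited ChIP values are on a log2 scale, input-subtracted. The methods scale GR values to tags within binding regions and the deposited command to total tags. The authors deposited RNA counts per gene from featureCounts 1.6.2, 3956379 to 7777219 reads per library, and deposited peak positions in bases, whose overlap was counted from 1 base. The authors' own fold changes and p-values were not used. ChIP values were compared by limma 3.58.1 (all 10 libraries, variance trend) and counts by edgeR 4.0.16 (TMM, quasi-likelihood, genes with more than 10 reads over 12 libraries) in R 4.3.3, with DESeq2 1.42.0 as an alternative. Pol2 genes were read from the region with the highest mean. Fits were tested on simulated data. Named were the 12 greatest increases, 6 highest values, 5 greatest decreases, up to 4 genes a list, regions called between CORT groups (3 largest against NADIR_180), the 5 largest library gaps and 5 known targets. The members and lists were chosen with earlier results of these data known. Pooled libraries were the replicates, and with 2 per group p-values measure their spread only. Sequences came from the study's motif list and from RefSeq. Tables were summarised in Python 3.11.15 and plotted by matplotlib 3.10.9.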

Additional observations from a re-analysis of the deposited data

Results flagged for a closer look

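In limma, 5 named regions differed between CONS_140 and another CORT group in a test of the difference itself. Against PEAK_140 these were the exonic region near Pigv, with a difference of 7.31 on the log2 scale, and the region near AABR07024593.2, with -3.09. Against NADIR_180 they were the 3 largest of 1972, near AABR07010587.1 (7.05), Ass1 (7.03) and Nedd4l (6.74). The Pigv region had a peak in CONS_140 alone, and the region near AABR07024593.2 in PEAK_140 and CONS_180 alone. The 3 regions against NADIR_180 had a peak in CONS_140 and none in NADIR_180. Entry into the set through such peaks favours differences in these directions. Groups of 2 and 3 libraries were too small for a search for single outlying libraries.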

How the results depend on the processing

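Scaling moved the counts against VEH and NADIR_180 most, and leaving out a CONS_140 library those against PEAK_140 and CONS_180. Centring every library at its median left 126 regions raised and 351 lowered against VEH, 1 raised against CONS_180, 0 lowered against PEAK_140 and 0 raised against NADIR_180. Quantile normalization gave 405 raised and 366 lowered against VEH, 1 and 1 against CONS_180, 4 and 5 against PEAK_140 and 94 and 66 against NADIR_180. An adjusted p under 0.01 left 6 lowered against VEH, 0 and 0 against PEAK_140 and 1150 raised against NADIR_180, and regions above the median of mean values gave 1 lowered against VEH and 2 against PEAK_140. A fit of only the 4 libraries compared gave 3 raised and 17 lowered against PEAK_140 and 1081 and 1 against NADIR_180, and without the variance trend 0 and 0 were called against PEAK_140. Keeping regions whose CONS_140 libraries lay within 4 log2, chosen after seeing the data, gave 1 raised and 3 lowered against CONS_180 and 2 and 4 against PEAK_140. Leaving out 1 library at a time gave 2001 to 2898 raised and 7 to 71 lowered against VEH, 0 to 17 and 0 to 40 against CONS_180, 0 to 46 and 0 to 359 against PEAK_140, and 1215 to 2052 and 0 to 25 against NADIR_180. For pSer2 Pol2 regions, centring gave 408 raised and 232 lowered, regions above the median level 367 and 155, the 4 libraries alone 0 and 0, and leaving out 1 library 22 to 5515 raised and 2 to 154 lowered. Counts of mRNA calls stayed within 1.5 times of 627 and 670 under all alternatives run. The cause of these moves was not tested, apart from centring, which subtracts the shared rise by construction. In ChIP fits that left a group with 1 library, that group added nothing to the estimate of spread, which came from the other groups.

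Directions at single regions also turned. After centring and after quantile normalization the log2 change was -1.39 and -0.69 at Sds, -3.48 and -2.88 at AABR07024593.2, -0.25 and -0.31 at Hsd11b1 and -3.85 and -0.92 at Apoe, and after centring it was -0.030 at Pigv. With 1 library left out it ran from -0.030 without CONS_140 replicate 1 to 9.45 without replicate 2 at RF00001, and in the same order from -0.030 to 8.37 at AABR07060519.1, from -5.87 to 2.44 at Alb, from -6.03 to 2.30 at Ppp1r3b and from -3.998 to 4.52 at Apoe, where it was -3.80 without the VEH library at 180 min. Of the 66 named regions, 36 kept direction and call after centring and 55 after quantile normalization.

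Same-numbered libraries did not deviate together, with correlations of -0.03 to 0.07 for GR and -0.03 to 0.07 for mRNA, so the numbers were not taken as pairs. The VEH libraries for GR carry no replicate number, so a replicate block was fitted in the 8 CORT libraries alone, where it gave 0 raised and 0 lowered against CONS_180 and against PEAK_140, and 2008 and 0 against NADIR_180. With the block, mRNA gave 631 raised and 676 lowered. Tag totals from 3236498 to 6715803 in the 4 libraries limit the weaker sites, where the 2 CONS_140 libraries differed most, and a call missed there does not show that binding was the same.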
